A study of Mus musculus with 18 samples.

Results

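The secreted Wnt antagonists are proteins that cells release and that lower Wnt signalling outside the cell. Of these, 10 genes were followed, *Sfrp1*, *Sfrp2*, *Sfrp4*, *Sfrp5*, *Frzb*, *Dkk1*, *Dkk2*, *Dkk3*, *Wif1* and *Notum*, and all 10 were matched by symbol among the 21959 genes listed for fibroblasts and among the 51826 listed for liver. The group was chosen with measured values in view, since *Sfrp2* ranked 3 by log2 fold change among the 2518 genes that were called higher in mutant fibroblasts, had at least 1 CPM there and did not overlap wild-type libraries. The values of the 10 genes by genotype in fibroblasts are therefore given as a description and carry no test.

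The study deleted repeat B of the long non-coding RNA *Xist* in mice of the ICR strain with CRISPR/Cas9 and compared RepB-/- with wild-type (WT) cells and tissues. Of its 18 RNA-seq libraries 12 were used: primary MEFs (mouse embryonic fibroblasts) and liver, each with 3 libraries per genotype. The remaining libraries, 6 of brain, were not used. The letters B and W in the library names were read as RepB-/- and WT. The sources give no treatment for either tissue and no age or sex of the single animals sequenced, and the MEF libraries carry both the tissue label Tail and the description of a primary MEF cell line, so the region of the body they came from is uncertain. RepB-/- mice carry the deletion in the germ line, thus in every cell, and nothing in the labels says whether the replicates of a genotype came from separate cultures or animals, so p-values measure only the spread between these samples.

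Wnt proteins are lipid-modified ligands that bind Frizzled receptors and the LRP5 and LRP6 co-receptors, after which β-catenin is stabilized and acts with TCF/LEF factors on target genes. Secreted antagonists act before this step. The SFRP family, Frzb and Wif1 bind Wnt proteins themselves, Dkk1 and Dkk2 bind the LRP co-receptors, Dkk3 is a divergent Dkk family member whose action on Wnt signalling is less settled, and Notum is an enzyme that removes the lipid that Wnt proteins need for receptor binding. Fibroblasts are a known source of several of them, and in liver the Wnt pathway is best known for setting the gene programme of hepatocytes around the central vein.

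MEF libraries held between 11540344 and 20587556 counts and liver libraries between 37682201 and 51542709. CPM is a count divided by the library size in units of 1e+06 counts, after TMM scaling over the genes tested in that tissue. FPKM, used to set genes side by side, is the authors' deposited value per kilobase, without TMM scaling. In MEFs the 10 fibroblast markers summed to between 14384 and 17589 CPM in RepB-/- and between 9781 and 12861 CPM in WT, while 7 hepatocyte markers summed to at most 2.17 CPM. In liver the hepatocyte markers summed to between 110604 and 193744 CPM. Repeat B itself could not be read in either tissue, since the counts are per gene. The MEF counts used here also hold no *Xist* row. In liver *Xist* was between 290.36 and 661.51 CPM in 5 of the 6 libraries, and 0.08 CPM (4 counts) in the library labelled RepB-/- replicate 2, the only liver library with more than 1 count of any of 4 Y-linked genes (438 counts of *Uty*, 708 of *Kdm5d*, 1527 of *Ddx3y* and 1669 of *Eif2s3y*). The study writes RepB-/- for homozygous females, so these values go against that library's label. It was kept in the comparison as labelled, and every direction given for RepB-/- liver includes it unless stated. The liver libraries of replicate 1 also stood apart in both genotypes: *H19* was 3880 and 3541 CPM there and between 0.46 and 12.5 CPM in the other 4, and *Afp*, alpha-fetoprotein, was 507 and 369 CPM against 2.79 to 6.04 CPM. For members tested in liver, log2 fold changes are also given without RepB-/- replicate 2 and, where tested, with replicates 2 and 3 alone. The latter still hold the library with Y-linked counts. No fit leaves out all of these libraries, since RepB-/- replicate 3 alone would remain of that genotype. Pair ratios, overlaps and FPKM shares are given with all libraries.

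*Sfrp2*, which encodes a secreted protein that binds Wnt ligands through a domain like that of Frizzled receptors, was the member that differed most between the MEF genotypes. The gene lies on chromosome 3 (GRCm39, chr3:83673628-83681623, plus strand). It had 141, 86.3 and 67.5 CPM in RepB-/- replicates 1, 2 and 3, from 2775, 1671 and 1332 counts. In WT replicates 1, 2 and 3 it had 9.62, 6.18 and 8.26 CPM, from 120, 100 and 139 counts. The lowest RepB-/- library was far above the highest WT library, and the RepB-/- libraries also differed among themselves. The fitted fold was 12.4 (log2 fold change 3.63, SE 0.24), and it was 3.28 on the log2 scale without RepB-/- replicate 1, the library with the highest level. *Dkk2*, the member with the next highest log2 fold change, encodes a Dickkopf protein that binds the LRP co-receptors and lies on the same chromosome (GRCm39, chr3:131791053-131886065, plus strand).

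The 250 bases before the start of each of these genes are shown because they are the members with the largest rises on the log2 scale in RepB-/- MEFs and because both lie on the plus strand with starts at the same base in the RefSeq promoter table and the liver gene table (GRCm38). They were taken from RefSeq (GRCm38.p6), where 6 of the 10 members had an entry, and span chr3:83766071-83766320 for *Sfrp2* and chr3:132085042-132085291 for *Dkk2*, plus strand, 5′ to 3′. Capitals mark matches to TATAAA, the TATA box core, or CTTTGA, the core of the TCF/LEF site, each searched on both strands.
Sfrp2: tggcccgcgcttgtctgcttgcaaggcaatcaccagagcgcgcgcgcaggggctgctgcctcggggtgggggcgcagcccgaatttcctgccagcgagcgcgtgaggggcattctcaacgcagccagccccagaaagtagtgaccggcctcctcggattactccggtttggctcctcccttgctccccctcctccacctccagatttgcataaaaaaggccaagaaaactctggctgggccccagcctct
Dkk2: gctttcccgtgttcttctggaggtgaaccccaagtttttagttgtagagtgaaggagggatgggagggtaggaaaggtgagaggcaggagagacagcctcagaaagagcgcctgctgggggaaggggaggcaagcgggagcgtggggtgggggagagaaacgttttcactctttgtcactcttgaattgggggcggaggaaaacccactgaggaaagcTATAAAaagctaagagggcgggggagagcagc

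The *Dkk2* window held 1 TATAAA on the gene's strand, with its first base 32 bases before the start, and no CTTTGA. The *Sfrp2* window held neither. Of all 32851 windows of this length in the table, 12.4% held TATAAA and 13.8% held CTTTGA on either strand. The *Sfrp2* window had 16 CpG dinucleotides and 63.6% G and C, and the *Dkk2* window 7 and 55.6%, beside medians of 6 and 52.4% over all windows. A match is a description of the letters, and these windows say nothing of what binds there.

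Among the other direct Wnt binders in MEFs, *Sfrp1* was the most abundant member in WT cells and did not follow *Sfrp2*. It had 98.5, 77.6 and 47.0 CPM in RepB-/- and 89.1, 85.5 and 96.6 CPM in WT replicates 1, 2 and 3. The groups overlapped, because RepB-/- replicate 1 was higher than every WT library while replicate 3 was the lowest of the 6. The log2 fold change was -0.28 (SE 0.18), and it ranged from -0.53 without RepB-/- replicate 1 to -0.03 without RepB-/- replicate 3.

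*Frzb*, also called Sfrp3, had 7.03, 5.99 and 4.87 CPM in RepB-/- and 7.94, 8.29 and 7.54 CPM in WT. All 3 RepB-/- libraries were below all 3 WT libraries, by a log2 fold change of -0.41 (SE 0.17). *Sfrp4*, another member of the SFRP family, was near the limit of detection, at 0.36, 0.72 and 0.10 CPM in RepB-/- and 0.96, 0.74 and 0.77 CPM in WT, from 23 counts in all RepB-/- libraries and 37 in all WT libraries. Its groups also did not overlap, although RepB-/- replicate 2 and WT replicate 2 lay next to each other. *Sfrp5* had 0 counts in every RepB-/- library and 0, 2 and 2 counts in WT, and no fold is given where both groups are at or under 3 counts per library, the floor used here.

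*Wif1*, Wnt inhibitory factor 1, binds Wnt ligands through a domain of its own. It had 2.09, 1.60 and 0.81 CPM in RepB-/- MEFs and 0.96, 2.16 and 0.77 CPM in WT. The groups overlapped over nearly their whole range, with a log2 fold change of 0.19 (SE 0.45).

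Of the Dickkopf genes, *Dkk2* and *Dkk3* were higher in every RepB-/- MEF library than in every WT library. *Dkk2* had 76.3, 73.3 and 65.5 CPM in RepB-/- and 23.5, 42.4 and 47.4 CPM in WT, a log2 fold change of 0.91 (SE 0.17). *Dkk3* had 89.9, 85.3 and 83.0 CPM in RepB-/- and 41.7, 62.3 and 58.9 CPM in WT, a log2 fold change of 0.66 (SE 0.12). For both genes the RepB-/- libraries were close together and WT replicate 1, the shallowest library, was the lowest. Without that library the log2 fold changes were 0.68 for *Dkk2* and 0.51 for *Dkk3*. *Dkk1*, the best known LRP antagonist of the family, had at most 3 counts in any MEF library.

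*Notum* had 1.07, 1.45 and 1.98 CPM in RepB-/- MEFs and 3.85, 1.61 and 2.20 CPM in WT. The groups overlapped, and WT replicate 1 was well above the other 5 libraries. The log2 fold change was -0.74 (SE 0.37), and -0.35 without WT replicate 1. *Notumos* and *Myadml2os*, antisense genes that overlap *Notum*, have no row in the MEF counts. Whether their reads are among the 21 to 48 counts of *Notum* per MEF library is not known.

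**Figure D1:**
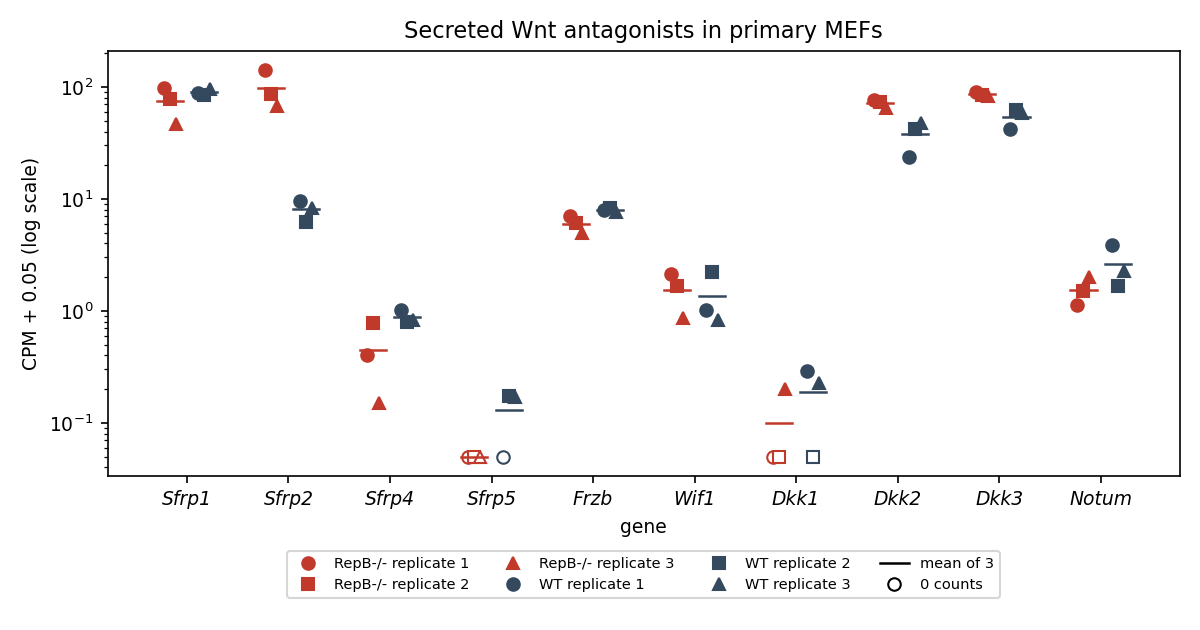
CPM of the 10 secreted Wnt antagonists in each MEF library on a log axis, with 0.05 added to each value. Red marks RepB-/- and dark blue WT, the shapes give replicates 1 to 3, bars the mean of 3 libraries and open symbols 0 counts. The *Sfrp2* libraries are the farthest apart, at 67.5 CPM or more in RepB-/- and 9.62 CPM or less in WT.

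Over the 8 members that could be tested in MEFs, 3 were called higher in RepB-/- (*Sfrp2*, *Dkk2* and *Dkk3*) and 0 lower in edgeR's quasi-likelihood fit, where 19.4% of all 13306 genes tested were called higher and 19.7% lower. RepB-/- lay above WT without overlap in 3 members, beside 26.4% of all genes, and below in 2, beside 25.8%. Because the group was chosen on this contrast, nothing is read from these counts. The median log2 fold change of the 8 was -0.04, beside 0.00030 over all genes tested. Without RepB-/- replicate 1, 5 members were called, *Frzb* and *Sfrp1* being called lower in addition. In that setting 2036 of 13571 genes tested were called higher and 2055 lower.

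Per kilobase, the make-up of the secreted antagonists differed between the MEF genotypes. In WT the order of mean levels was *Sfrp1* at 21.5 ± 1.61 FPKM (SD, n = 3), *Dkk3* at 16.7 ± 2.88, *Dkk2* at 10.5 ± 3.28, *Sfrp2* at 3.89 ± 0.97, *Frzb* at 2.54 ± 0.13 and *Notum* at 1.11 ± 0.55 FPKM. The remaining members had means under 1 FPKM, and of neighbours in this order only *Notum* and *Wif1* and the last pair, *Dkk1* and *Sfrp5*, had libraries that overlapped. In RepB-/- the order was *Sfrp2* at 43.9 ± 17.0 FPKM, *Dkk3* at 24.6 ± 0.97, *Dkk2* at 18.6 ± 1.47, *Sfrp1* at 16.4 ± 5.69 and *Frzb* at 1.77 ± 0.32 FPKM. There *Dkk2* and *Sfrp1* overlapped, as did *Notum* and *Wif1* and the last 3 members, while *Sfrp2*, *Dkk3* and *Dkk2* were apart from one another.

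*Sfrp2* made up 47.2%, 37.7% and 35.9% of the summed FPKM of the 10 members in RepB-/- replicates 1, 2 and 3, and 9.24%, 5.06% and 6.37% in WT. The sum itself was 133, 103 and 83.6 FPKM in RepB-/- and 52.3, 57.2 and 62.0 FPKM in WT. Thus the RepB-/- libraries were higher in both measures and also more spread, again with replicate 1 the highest. Both measures include *Sfrp2*, the gene that chose the group. Their separation is therefore tied to that choice and is not read as a result about the other members.

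Markers of fibroblasts and of other cells that a fibroblast culture can hold also differed between the genotypes in part. Such differences were common in MEFs. Of all genes tested there, 19.4% were called higher and 19.7% lower in RepB-/-. Without overlap, 26.4% lay above WT and 25.8% below. The counts and sums that follow are a description beside these shares. In bulk samples, more cells of a type and more RNA per cell cannot be told apart. Of the 10 fibroblast markers, 6 were called higher and 1 lower in RepB-/-. *Postn* (periostin) had 335, 259 and 201 CPM in RepB-/- and 67.7, 94.1 and 114 CPM in WT, and *Dcn* (decorin) had 161, 139 and 72.0 CPM against 48.4, 41.8 and 59.5 CPM, both with the order of RepB-/- libraries seen for *Sfrp2*. Of 5 chondrogenic markers, 3 were called higher, and their sum was between 150 and 311 CPM in RepB-/- and between 106 and 126 CPM in WT, with *Col2a1*, the main cartilage collagen, at 184, 103 and 42.7 CPM and at 37.4, 24.9 and 31.3 CPM. Of 6 macrophage markers, 3 were called higher and 1 lower, with sums between 117 and 151 CPM and between 49.6 and 64.6 CPM. *Lyz2* was called higher and made up most of the RepB-/- sums. *Adgre1* (means of 3.13 CPM in RepB-/- and 0.97 CPM in WT) and *Csf1r* (15.8 and 10.4 CPM) were also called higher. *Cd68* was called lower (7.72 and 12.0 CPM), *Ptprc* was not called (1.21 and 0.96 CPM), and *Clec4f* was at 0 in every library. Of 6 endothelial markers, 4 were called lower, with sums between 12.2 and 13.7 CPM and between 25.5 and 30.6 CPM. Sums of further lists also did not overlap between the genotypes: 4 keratinocyte markers were between 4.71 and 10.8 CPM in RepB-/- and between 2.005 and 3.83 CPM in WT, with 1 called higher, 5 osteogenic markers were between 93.4 and 106 CPM and between 74.7 and 81.6 CPM, with 1 called in each direction, and 5 neural and Schwann markers were between 5.61 and 7.04 CPM and between 10.8 and 12.4 CPM, with 1 called lower. Stellate and portal mesenchyme markers, which share genes with the fibroblast list, were apart and higher in RepB-/-, and the hepatocyte and erythroid sums, at most 2.17 and 1.36 CPM in any library, were apart and lower. Whether the make-up of the cultures has a part in the values of *Sfrp2*, *Dkk2* and *Dkk3* was not tested.

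The 5 protein-coding genes whose log2 CPM followed *Sfrp2* most closely over the 6 MEF libraries, of 10275 compared, were *Chrdl1*, *Ndufa4l2*, *Mcm5*, *Slc29a1* and *Tgfbi*, with Pearson's r between 0.996 and 0.999. *Chrdl1*, a secreted BMP antagonist, had means of 13.7 CPM in RepB-/- and 8.51 CPM in WT. *Tgfbi*, a secreted matrix protein, had 26.1 and 6.79 CPM. The 6 points are the same libraries that gave *Sfrp2* its rank and fall into 2 genotypes, so the coefficients describe these libraries only.

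The rest of the Wnt pathway was described with 95 genes in 7 lists, of which 70 could be tested in MEFs. In edgeR's fit 12 of these (17.1%) rose and 22 (31.4%) fell in RepB-/-, beside the 19.4% and 19.7% of all genes given above. The median log2 fold change of the 70 was -0.10. The rule for naming took at most 3 genes in each direction from each list, 27 in all, and every p below is adjusted over all 13306 genes.

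Among 7 other Wnt inhibitors tested, 1 rose and 2 fell. *Igfbp4*, a secreted binding protein of insulin-like growth factors that can also antagonize Wnt receptors, had 1606, 1463 and 1209 CPM in RepB-/- and 546, 622 and 598 CPM in WT (log2 fold change 1.28, SE 0.10, edgeR adjusted p = 1.3e-06). *Apcdd1*, a membrane-bound Wnt inhibitor, fell, from 21.5, 26.7 and 26.5 CPM in WT to 11.2, 10.6 and 7.70 CPM (log2 fold change -1.34, SE 0.14). *Trabd2b*, a metalloprotease that cleaves Wnt proteins, fell by 0.27 on the log2 scale. The called genes of this list did not share one direction.

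The R-spondins and their receptors act opposite to the antagonists, by raising Wnt receptor levels at the cell surface, and of 5 agonist genes tested 3 rose and 1 fell. *Rspo3* had 18.4, 17.4 and 12.7 CPM in RepB-/- and 4.73, 8.47 and 8.55 CPM in WT (log2 fold change 1.14, SE 0.20), without overlap. *Rspo2* had 5.15, 4.24 and 1.57 CPM against 1.203, 1.175 and 1.663 CPM (log2 fold change 1.42, SE 0.40), where RepB-/- replicate 3 was within the WT range, and it lost its call without RepB-/- replicate 1 (adjusted p = 0.073). *Lgr4*, an R-spondin receptor, rose from 59.7, 73.2 and 78.9 CPM in WT to 117, 123 and 128 CPM. *Lgr6*, its relative, fell by 0.41 on the log2 scale.

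Of 12 ligand and secretion genes tested, 1 rose and 6 fell. *Wnt10b*, a ligand of the β-catenin pathway, had 0.51, 0.21 and 0.61 CPM in RepB-/- and 6.01, 2.97 and 3.62 CPM in WT (log2 fold change -3.21, SE 0.41). *Wnt9a* and *Wnt11* fell by 1.55 and 1.49 on the log2 scale. *Wnt16* was the ligand that rose (log2 fold change 1.38), at 0.66 to 2.12 CPM in RepB-/- and 0.40 to 0.62 CPM in WT. Among 16 receptors, *Fzd4* rose by 0.37 while *Fzd6* and *Ptk7* had log2 fold changes of -1.34 and -0.40, and the other 13 did not pass the test. *Lrp5* and *Lrp6*, the co-receptors that Dickkopf proteins bind, had log2 fold changes of -0.09 and 0.08 and did not pass.

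Of 16 genes of signal transduction, 2 rose and 5 fell, all by less than 0.6 on the log2 scale. *Apc*, a scaffold of the complex that degrades β-catenin, rose by 0.56 and *Ctnnb1*, which encodes β-catenin, by 0.20. *Axin1*, *Dvl2* and *Pygo2* had log2 fold changes of -0.50, -0.47 and -0.39.

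Of 10 target genes tested, 3 rose and 5 fell. *Tcf7*, a TCF factor that is itself a target, had 2.701, 1.963 and 1.622 CPM in RepB-/- and 12.99, 8.472 and 10.28 CPM in WT (log2 fold change -2.32, SE 0.23). *Lef1* had 0.46, 0.88 and 1.01 CPM against 4.49, 1.86 and 3.09 CPM (log2 fold change -1.98, SE 0.40). *Nkd1* had a log2 fold change of -0.90. *Axin2*, the target most often used to read the pathway and named here after its value was seen, had 7.03, 6.46 and 6.28 CPM against 13.9, 9.89 and 11.6 CPM (log2 fold change -0.83, SE 0.16, edgeR adjusted p = 0.00102). In *Tcf7*, *Lef1* and *Axin2* every RepB-/- library was below every WT library, as in 25.8% of all genes tested. *Myc*, a target also named after its value was seen, had a log2 fold change of 0.07 and was not called. The targets that rose were *Dact1*, *Nkd2* and *Twist1*, by 0.69, 0.46 and 0.23 on the log2 scale, and *Dact1* and *Nkd2* are, like *Axin2*, feedback inhibitors of the pathway. Of 4 genes tested that the Wnt pathway controls in pericentral liver, *Oat* rose by 0.37 and *Tbx3* had a log2 fold change of -1.01.

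Of the 27 named genes, 19 kept their call under all 11 alternatives run in MEFs. The other 8 lost it under at least 1: *Ctnnb1*, *Fzd4*, *Lgr6*, *Nkd1*, *Rspo2*, *Trabd2b*, *Twist1* and *Wnt16*. Without RepB-/- replicate 1 the pathway lists held 24 calls in place of 34, while calls over all genes went from 5202 to 4091.

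**Figure D2:**
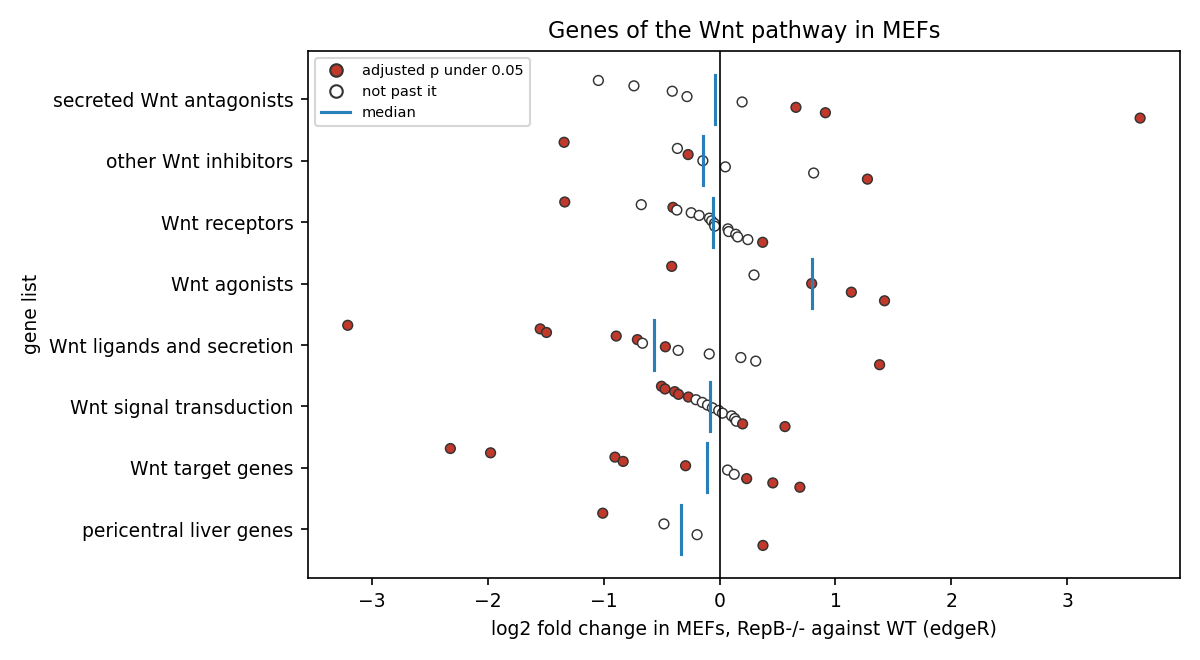
Log2 fold change of every tested gene of the secreted Wnt antagonists and of 7 Wnt pathway lists in MEFs, RepB-/- against WT, with 1 point per gene, filled red where edgeR's adjusted p was under 0.05, and a blue line at each list's median. *Sfrp2*, at 3.63, lies farthest to the right and *Wnt10b*, at -3.21, farthest to the left. For the secreted Wnt antagonists the fill is a description and no test, since *Sfrp2* chose the group on this contrast.

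In liver, *Notum* was the main secreted antagonist. It lies on chromosome 11 (GRCm38, chr11:120653788-120661175, minus strand) and had 47.5, 37.1 and 29.3 CPM in RepB-/- replicates 1, 2 and 3 and 52.8, 55.2 and 46.4 CPM in WT. RepB-/- was the lower one in all 3 pairs of libraries with the same number, but the groups overlapped, because RepB-/- replicate 1 was above WT replicate 3. Pairing by number is uncertain for replicates 2 and 3, since these RepB-/- libraries correlated better with a WT library of another number. The log2 fold change was -0.44 (SE 0.22, 95% interval -1.06 to 0.18), with an edgeR adjusted p of 1.00. With the replicate number as a block it was -0.46 (SE 0.19, adjusted p = 0.75), and with replicates 2 and 3 alone -0.61. The antisense genes *Notumos* and *Myadml2os* overlap it, with between 104 and 170 and between 7 and 23 counts per liver library. If strand was not used in counting, their reads cannot be told apart from those of *Notum* where they overlap. *Notum* itself had 5274 counts in all RepB-/- libraries and 6700 in all WT libraries.

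*Frzb* and *Dkk3* had the opposite order to *Notum* within the liver pairs of the same number. *Frzb* had 5.09, 2.64 and 1.87 CPM in RepB-/- and 3.17, 1.63 and 0.84 CPM in WT, so RepB-/- was higher in 3 of 3 pairs, by ratios of 1.61, 1.62 and 2.21. Mesenchymal markers had the same order: the sum of 10 fibroblast markers was higher in RepB-/- by ratios of 1.49, 1.52 and 1.46, and that of 9 stellate and portal mesenchyme markers by 1.44, 1.35 and 1.41. Both lists hold *Col1a1*, *Col3a1*, *Dcn*, *Lum* and *Pdgfrb*, so their sums are not separate measures. The sum of 6 erythroid markers was higher by 2.80, 7.39 and 4.86. No gene of these lists was called, and their part in the values of *Frzb* was not tested. As for *Notum*, matching by number is uncertain for replicates 2 and 3, and these ratios and the block below rest on it. For *Frzb*, RepB-/- replicates 2 and 3 were both above WT replicates 2 and 3. The unpaired groups overlapped, since replicate 1 was the highest library of each genotype. The log2 fold change was 0.77 (SE 0.62, 95% interval -0.95 to 2.49, edgeR adjusted p = 1.00). With the block it was 0.83 (SE 0.32), with an unadjusted p of 0.040 and an adjusted p of 0.73 in edgeR, and with replicates 2 and 3 alone it was 0.87. In MEFs the same gene was lower in RepB-/-, and the difference between the tissues was not tested.

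For *Wif1*, *Sfrp1* and *Dkk3* the liver libraries of replicate 1 stood apart in both genotypes. *Wif1* had 14.5, 0 and 0 CPM in RepB-/- and 26.7, 0.72 and 0 CPM in WT, from 733 and 1197 counts in replicate 1 and at most 28 counts in the other 4 libraries. *Sfrp1* had 5.94, 0.83 and 1.17 CPM in RepB-/- and 7.87, 0.88 and 0.72 CPM in WT. *Dkk3* had 7.03, 2.80 and 1.72 CPM in RepB-/- and 6.07, 2.14 and 1.63 CPM in WT. In each case both replicate 1 libraries were above all 4 others.

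The log2 fold changes of these genes were -0.92 (SE 2.58) for *Wif1*, -0.25 (SE 1.15) for *Sfrp1* and 0.23 (SE 0.71) for *Dkk3*, each with an edgeR adjusted p of 1.00. With the replicate number as a block they were -1.97 (SE 0.98, edgeR adjusted p = 0.79) for *Wif1*, 0.05 (SE 0.35, adjusted p = 0.99) for *Sfrp1*, which thus changed sign, and 0.23 (SE 0.28, adjusted p = 0.89) for *Dkk3*. Within pairs of the same number *Dkk3* was higher in RepB-/- in 3 of 3, by ratios of 1.16, 1.31 and 1.06, and *Sfrp1* in 1 of 3. These directions depend on matching replicates 2 and 3 by number. RepB-/- replicate 3 had less *Dkk3* than WT replicate 2 (1.72 and 2.14 CPM). RepB-/- replicate 2 had more *Sfrp1* than WT replicate 3 (0.83 and 0.72 CPM). In the fit without the block, the direction of all 3 genes turned with the replicate 1 libraries. Without RepB-/- replicate 1, *Sfrp1* was at -1.66, *Dkk3* at -0.53 and *Wif1* at -11.6. Without WT replicate 1 they were at 1.73, 1.03 and 3.75. With replicates 2 and 3 alone, *Sfrp1* was at 0.32 and *Dkk3* at 0.27, and *Wif1* was not tested there.

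*Sfrp2*, the leading member in MEFs, had 31, 0 and 0 counts in RepB-/- liver and 25, 0 and 0 counts in WT, so it too was detected in the replicate 1 libraries alone. A count of 0 allowed up to 0.058 to 0.076 CPM of all counts in those 4 libraries. The antisense gene *Gm26771* that overlaps it had 0 counts in all 6. *Sfrp4* had 4, 4 and 5 counts in RepB-/- and 10, 0 and 0 in WT, and *Dkk2* had 9, 0 and 2 and 2, 0 and 4 counts. *Dkk1* had 2 counts in 1 library and *Sfrp5* 4 counts in 1 library. These 5 genes did not pass the filter on low counts in liver, and no difference in them was detectable at this depth.

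**Figure D3:**
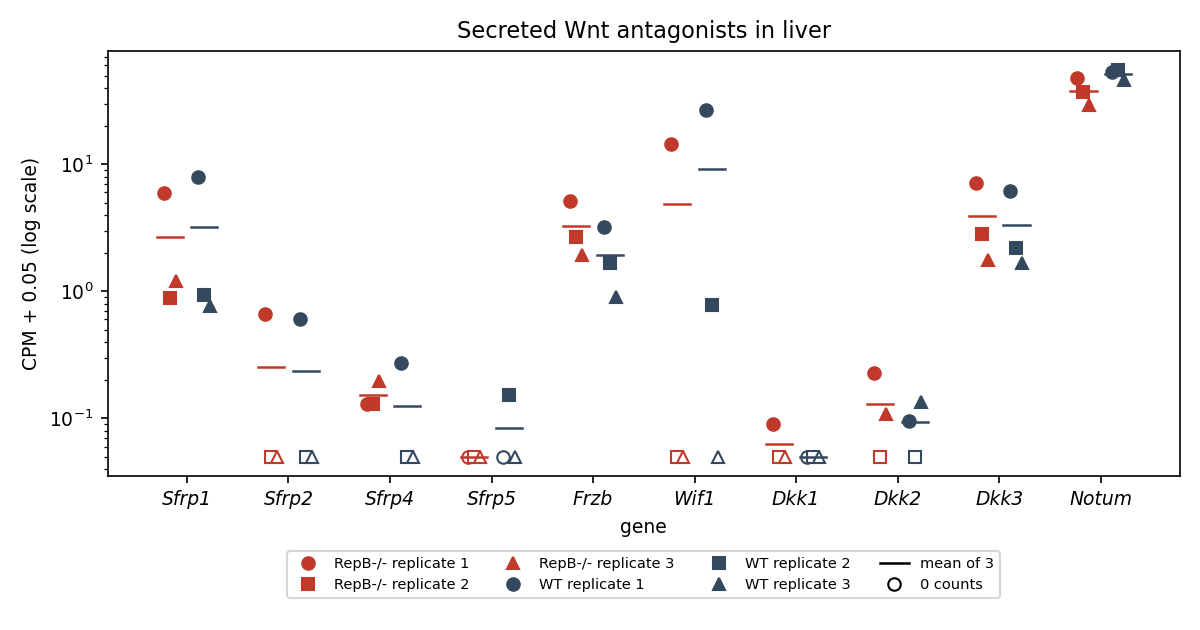
CPM of the 10 secreted Wnt antagonists in each liver library on a log axis, with 0.05 added to each value and the same colours and shapes by genotype and replicate. *Notum* is the highest, between 29.3 and 55.2 CPM, and the circles of replicate 1 stand above the other libraries for *Wif1*, *Sfrp1*, *Sfrp2* and *Dkk3* in both genotypes.

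None of the 5 members tested in liver was called in either direction. Over the 16080 genes tested in edgeR, 1 (0.00622%) was called higher and 5 (0.0311%) lower in RepB-/-, 502 had an unadjusted p under 0.05, and the variation between replicates was 51.2% as the biological coefficient of variation, beside 9.06% in MEFs. With the block 3 genes (0.0187%) were called higher and 5 (0.0311%) lower, again without a member. By overlap of the libraries, 0 of the 5 members had all RepB-/- above or all below WT, beside 3.38% and 4.66% of all genes. DESeq2 called 80 genes and no member. Of the 70 pathway genes tested in liver, 0 were called by either tool, and their median log2 fold change was 0.03.

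Per kilobase, *Notum* had 16.1 ± 5.26 FPKM (SD, n = 3) in RepB-/- liver and 23.3 ± 3.12 FPKM in WT, and made up 77.4% and 77.6% of the summed mean FPKM of the 10 members. *Wif1* followed with 2.05 ± 3.55 and 4.25 ± 7.12 FPKM, an SD above the mean because of replicate 1. Each other member had a mean under 1.1 FPKM. *Notum* was apart from *Wif1* in both genotypes. Below *Wif1*, the only neighbours in the order whose libraries did not overlap were *Frzb* and *Sfrp2* in WT.

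The replicate 1 libraries, in which *Wif1*, *Sfrp1*, *Sfrp2*, *Dkk3* and *Frzb* were above the other 4, were also those with the highest fetal liver and mesenchymal genes. The 5 fetal liver markers summed to 5970 and 4753 CPM in RepB-/- and WT replicate 1 and to between 4.50 and 20.2 CPM in the other libraries. *Igf2*, a fetal growth factor, was 1480 and 763 CPM there and at most 1.49 CPM in the other 4. The 10 fibroblast markers summed to 1397 and 936 CPM in replicate 1 and to between 275 and 480 CPM in the others, with *Col1a1* at 170 and 96.6 CPM against 6.64 to 28.5 CPM. *Notum* did not follow this split. The labels give no stage that would set replicate 1 apart, and the part of stage or of mesenchymal cells in these values was not tested.

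Of 8 genes controlled by the Wnt pathway around the central vein, 5 (*Glul*, *Cyp1a2*, *Cyp2e1*, *Oat* and *Slc1a2*) were lower in both replicate 1 libraries than in all 4 others, 1 (*Lect2*) was higher in both and 2 (*Rhbg* and *Tbx3*) overlapped. These 8 were named after their values were seen. *Glul*, glutamine synthetase, had 431 and 534 CPM in the RepB-/- and WT replicate 1 libraries and between 723 and 1065 CPM in the other 4, and *Lect2* had 205 and 208 CPM against 130 to 184 CPM. *Axin2* was between 5.73 and 9.27 CPM in RepB-/- and between 8.52 and 10.4 CPM in WT, and the genotypes overlapped (log2 fold change -0.36, edgeR adjusted p = 1.00). Leaving out the library labelled RepB-/- replicate 2, which has the Y-linked counts, gave log2 fold changes of -0.43 for *Notum*, 0.89 for *Frzb*, 0.42 for *Dkk3*, 0.17 for *Sfrp1* and -0.33 for *Wif1*, against -0.44, 0.77, 0.23, -0.25 and -0.92 with it.

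**Figure D4:**
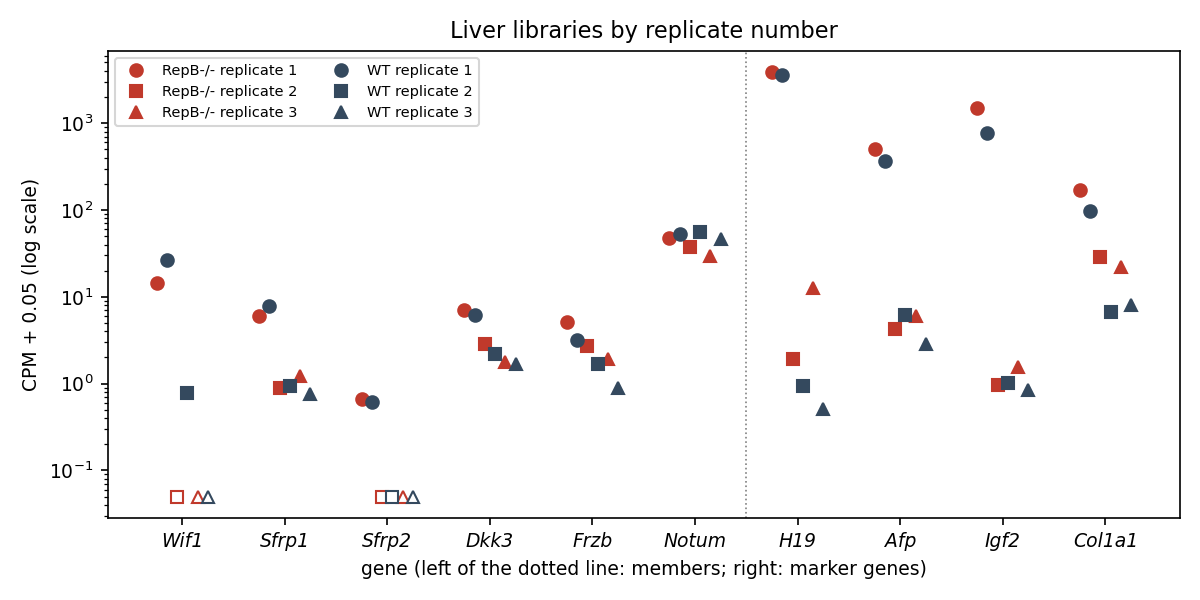
CPM of 6 secreted Wnt antagonists and, right of the dotted line, of 4 marker genes in each liver library, on a log axis with 0.05 added, red for RepB-/-, dark blue for WT, shapes for replicates 1 to 3 and open symbols for 0 counts. The replicate 1 circles are the highest of their genotype for *H19*, *Afp*, *Igf2* and *Col1a1* and for *Wif1*, *Sfrp1*, *Sfrp2*, *Dkk3* and *Frzb*. For *Notum* the replicate 1 circle is the highest in RepB-/- and lies between the other libraries in WT.

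The genes of liver whose log2 CPM followed *Notum* most closely over the 6 libraries, of 9637 compared, were *Rtcb*, *Fem1a*, *Timm8a1*, *Got2* and *Mex3c*, with r between 0.976 and 0.992. *Got2*, the mitochondrial aspartate aminotransferase, had means of 588 CPM in RepB-/- and 656 CPM in WT. The genes were picked as the highest of 9637 over 6 points. These include the RepB-/- library with Y-linked counts and both replicate 1 libraries, so the coefficients describe these libraries only.

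Side by side, the tissues used different members of the group. *Notum* was at 1.11 FPKM in WT MEFs and 23.3 FPKM in WT liver, and *Sfrp1* at 21.5 and 0.74 FPKM. *Sfrp2*, *Dkk2* and *Dkk3* were at 3.89, 10.5 and 16.7 FPKM in WT MEFs and at 0.097, 0.011 and 0.98 FPKM in WT liver. The tables were made with different annotations, so these levels are set beside each other without a test. The WT liver means of *Sfrp1*, *Sfrp2* and *Dkk3* rest on replicate 1: the libraries had 1.91, 0.17 and 0.15 FPKM of *Sfrp1*, 0.29, 0 and 0 FPKM of *Sfrp2*, and 1.92, 0.57 and 0.44 FPKM of *Dkk3*. *Sfrp5* and *Dkk1* had means under 0.1 FPKM in both tissues and genotypes.

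**Figure D5:**
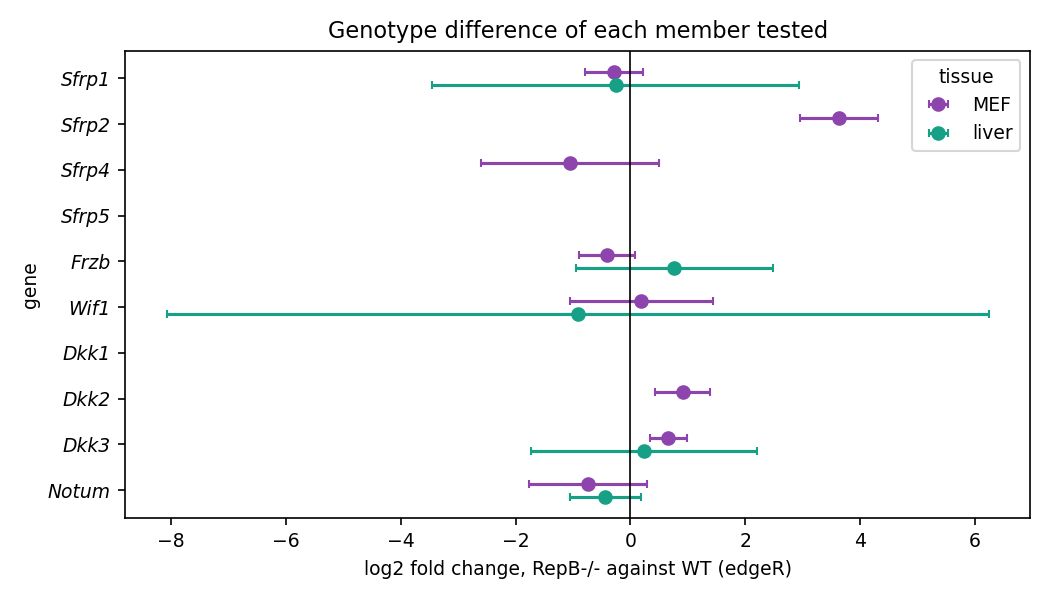
Log2 fold change of each tested member, RepB-/- against WT, in MEFs (purple) and liver (green), with 95% confidence intervals built from the SE of edgeR's fit with 3 libraries per genotype. In MEFs *Sfrp2* is at 3.63, far from the other members. The MEF intervals are a description and no test, since *Sfrp2* chose the group on this contrast. In liver every interval includes 0, the widest being that of *Wif1*.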

How the data were processed

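Read counts of 12 RNA-seq libraries, 3 RepB-/- and 3 WT of primary MEFs and of liver, were analysed as the authors deposited them, as whole-number counts per gene without normalization. The paper's methods name Cutadapt and Hisat2, and stranded libraries, while the submitters' processing notes name Trim Galore 0.4.1, STAR 2.7.0 and HTSeq 0.12.4. Which of them made these counts, and whether strand was used, is not given in the sources used here. The MEF table carries GRCm39 and the liver table GRCm38 coordinates. FPKM was copied from the deposited columns, in MEFs the count divided by the listed length in kilobases and by the library total in units of 1e+06. A further 6 per-library columns, the TPM values of liver, were not used. Promoter sequences came from RefSeq.

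Groups came from the library names. Each tissue was fitted by itself in edgeR 4.0.16 (R 4.3.3) with TMM scaling, filterByExpr at its defaults, the quasi-likelihood test and Benjamini-Hochberg adjustment over all genes tested, and an adjusted p under 0.05 was a call. The SE was taken as the absolute log2 fold change divided by the square root of the test's F statistic. The 95% intervals used this SE and a t distribution with the residual degrees of freedom alone. They are thus not edgeR's own and can differ from its p-values. A floor of 3 counts per library was used for undetected genes. Correlations used log2 CPM with a prior count of 2 over protein-coding genes with a mean of at least 5 CPM. In edgeR's MEF fit the p-values of the 10 members are not given.

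The 10 members and the lists were chosen with earlier results of these data known. Named genes were the members, up to 3 genes per direction and Wnt list with the largest changes among those called, 5 genes closest in pattern to *Sfrp2* in MEFs and to *Notum* in liver, and markers as checks. The alternatives were a fit with DESeq2 1.42.0, edgeR with DESeq2 size factors or with TMM factors from autosomal genes, no filter on low counts, a block for the replicate number, and leaving out 1 library at a time. For liver, a term for replicate 1 against 2 and 3, and replicates 2 and 3 alone, were chosen after seeing the data. Libraries with the same number, after genotype means were removed, correlated at 0.71, 0.36 and 0.37 in liver. The numbers were used as pairs there, but these values back a match for replicate 1 alone. RepB-/- replicates 2 and 3 correlated better with a WT library of another number. Because replicate 1 stood apart in both genotypes, positive values for 2 and 3 can arise from that split alone. In MEFs the values were -0.011, -0.042 and -0.0035, and the libraries share only a number. The brain libraries were not analysed here. Figures were drawn with matplotlib 3.10.9.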

Additional observations from a re-analysis of the deposited data

How the results depend on the processing

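In MEFs the members were chosen on this contrast, so their calls under other settings are a description and no support. The number of members called ranged from 3 to 5 when 1 library was left out, 5 without RepB-/- replicate 1, where *Frzb* and *Sfrp1* were called lower. With no filter on low counts 4 were called, *Sfrp1* being lower. With the replicate number as a block, which in MEFs stands for no known pairing, 5006 genes were called in place of 5202, and 3 members. Of 88 alternative values of the members' log2 fold changes in MEFs, 79 lay within 1 SE of the value reported.

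In liver, 0 members and 0 Wnt list genes were called under all 13 alternatives. The number of genes called over all, 6, was 0 with no filter on low counts, 2 with replicates 2 and 3 of both genotypes alone and 80 by DESeq2, and it ranged from 0 to 4 when 1 library was left out. With the replicate block it was 8. *Notum* (-0.63 to -0.28) and *Frzb* (0.27 to 1.37) kept their direction when 1 library was left out. The causes were not tested. In liver the spread between libraries limits what can be seen: the 95% interval of the log2 fold change reached from -1.06 to 0.18 for *Notum* and from -8.08 to 6.24 for *Wif1*.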
